A study of Rattus norvegicus with 3 samples.

Results

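The transcription machinery is described here as the genes on a rat expression array whose printed name, without the endings _predicted or _mapped, marks a subunit of RNA polymerase II or III (Polr2, Polr3), a TBP-associated factor (Taf), TBP itself, a general factor of the Gtf2 or Gtf3 families, Mediator (Med), Integrator (Ints), the kinases Cdk7, Cdk8 and Cdk9, the cyclins Ccnh, Ccnt1 and Ccnt2, an Supt factor or Tcea1 to Tcea3. The names matched 65 genes on 88 probes, of 35524 genes or unnamed probes on 41012 probes in all. Of these, 63 genes on 85 probes could be tested. The rule reads names alone, though it was set with earlier results of these data known. In the files used here the Ints and Cdk8 patterns matched no name, and subunits found under another array name are described apart from the 65.

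RNA polymerase II makes messenger RNA, and RNA polymerase III makes transfer RNA, 5S ribosomal RNA and other short RNAs. TFIID, built of TBP and its associated factors, recognises the core promoter; TFIIA, TFIIB, TFIIE, TFIIF and TFIIH complete the initiation complex, and Mediator links it to activators bound elsewhere. P-TEFb releases polymerase II paused close to the start, after which elongation factors such as the TFIIS proteins (Tcea), Spt5, Spt6 and the histone chaperone FACT accompany it through the gene.

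The F65 line consists of induced pluripotent stem (iPS) cells of the rat, adult cells reprogrammed to a state like that of the early embryo, which were untreated and grew on a feeder layer of irradiated fibroblasts from mouse embryos. They were set against mix1, in which adult rat cells of bone marrow cultures were mixed with primary fibroblasts from the ear. Agilent arrays in 2 colours, 3 in number, each received total RNA of 1 iPS F65 sample in Cy3 and of mix1 in Cy5. Nothing in the labels says that the 3 iPS samples were separate cultures, so the spread behind each p-value may be technical. The strain and age of the rats and the shares of cell types in mix1 are not given in the sources used here, and F65 is a single line.

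The oligos behind the results are short stretches of transcript. The Polr2a oligo is shown because it lies in the part of the message for the largest polymerase II subunit that encodes the repeated tail of this protein, the C-terminal domain. The capitals mark TACTCNCC, which occurs 3 times at steps of 21 bases. The probe lies at chr10:56567044-56567103 (minus strand, rn3, the build the file headers name for the array design).
Polr2a: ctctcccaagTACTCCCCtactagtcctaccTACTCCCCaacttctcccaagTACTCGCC
The oligos of the TFIIS genes are shown because of the paralogues compared they differed most among themselves. The letters are those printed on the array, and none is capitalised. The Tcea3 probe is listed at chr5:155010954-155015233, a span of 4280 bases for an oligo of 60 bases, the Tcea2 probe at chr3:170744979-170745038 and the second Tcea1 probe at chr5:14860661-14871181, all in rn3.
Tcea3: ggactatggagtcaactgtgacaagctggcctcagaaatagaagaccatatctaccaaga
Tcea2: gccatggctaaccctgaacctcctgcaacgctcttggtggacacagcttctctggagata
Tcea1: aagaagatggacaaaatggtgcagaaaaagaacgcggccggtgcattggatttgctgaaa
The oligos of Taf5 (chr1:252670206-252670265, rn3) and Supt16h (chr15:27630047-27630106, rn3) are shown because these members had the largest positive ratios.
Taf5: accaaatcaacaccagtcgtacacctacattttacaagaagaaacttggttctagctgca
Supt16h: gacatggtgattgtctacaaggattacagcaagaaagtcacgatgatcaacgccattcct

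Every value is a processed signal, an intensity that the scanner software had corrected for background and scaled between the dyes, or the log2 ratio of iPS F65 over mix1 from it. Because 1 mixture served as the control on every array, each mean ratio was tested against 0 (limma, with Benjamini-Hochberg adjustment over all 25801 tested probes), so variation between controls does not enter. A call of higher or lower needed an adjusted p under 0.05 and a ratio of at least 2-fold, and a gene with several probes is represented by its brightest. The fold limit does most of the selecting, since 95.5% of all tested genes passed the adjusted p alone. iPS F65 carried Cy3 on every array, so dye and cell effects cannot be told apart. Between 57.1% and 61.2% of gene spots were well above background in iPS F65, and between 58.3% and 62.1% in mix1. The number of arrays, 3, limits the precision. The median log2 ratio of all 21781 tested genes was 0.25, but it was -0.02 after centring each array and -0.08 after normexp background correction with loess, so ratios are also read against it.

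The labels were checked on 12 marker genes. All 4 pluripotency markers were higher in iPS F65: Nr0b1 at 4.87 ± 0.05, Dnmt3b at 4.22 ± 0.12 and Sox2 at 3.14 ± 0.40 (log2 ratio, SD, n = 3), while Pou5f1 was not well above background in mix1 and at least 4.53-fold higher. All 4 fibroblast markers were lower in iPS F65, with log2 ratios of -10.09 for Col3a1, -9.51 for Dcn and -6.90 for Col1a1, and Thy1 at least 45.2-fold lower. Of the 4 myeloid markers, Lyz2 (-7.30), Ctss (-6.30) and Cd68 (-4.69) were lower, and Ptprc, at -2.26 ± 1.64 (SD, n = 3), did not pass the test (limma, adjusted p = 0.0547), with 1 of 3 arrays well above background in iPS F65. Mix1 holds RNA of several cell types, and in such bulk samples fewer cells of a type and less RNA per cell cannot be told apart. The part of mouse feeder RNA in the iPS signals was not tested.

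Of the 63 tested members, 26 were higher in iPS F65, 1 was lower and 36 were neither. The shares were 41.3% higher and 1.59% lower, and over all genes tested they were 30.9% and 24.5%. The median log2 ratio of the members was 0.91, and 0.88, 0.93 and 0.90 on the arrays of replicates 1, 2 and 3. It lay 0.66 above the median of all genes. Of the members, 56 had a ratio above 0, as had 12306 of the 21781 tested genes. A ratio above the all-gene median, which splits all genes evenly, was found in 55 members. After centring, 19 members (30.2%) were higher, with 24.5% of all genes higher and 28.4% lower. With normexp and loess, 16 members (25.4%) were higher and the median was 0.50, with 18.3% of all genes higher and 26.1% lower. The 1 lower member was lower in both of these settings too. Among probes well above background in Cy3 and in Cy5 throughout, where 60 of the 63 members stood, 25 members were higher and 0 lower, and 28.9% of 17240 genes were higher and 18.7% lower. The counts describe a list of genes chosen by name, and no test of the list was made.

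Replicate arrays lay close together. The SD of a member's log2 ratio over the 3 arrays had a median of 0.03 and a largest value of 0.19, and 61 of 63 members had the same sign on every array. A group of 9 members lay within 0.1 of the 2-fold limit, among them Gtf2e2 (0.99), Gtf2e1 (0.98) and Gtf3c2 (0.98) just below it and Taf9 (1.05), Gtf2a2 (1.06) and Polr2f (1.08) just above.

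**Figure D1:**
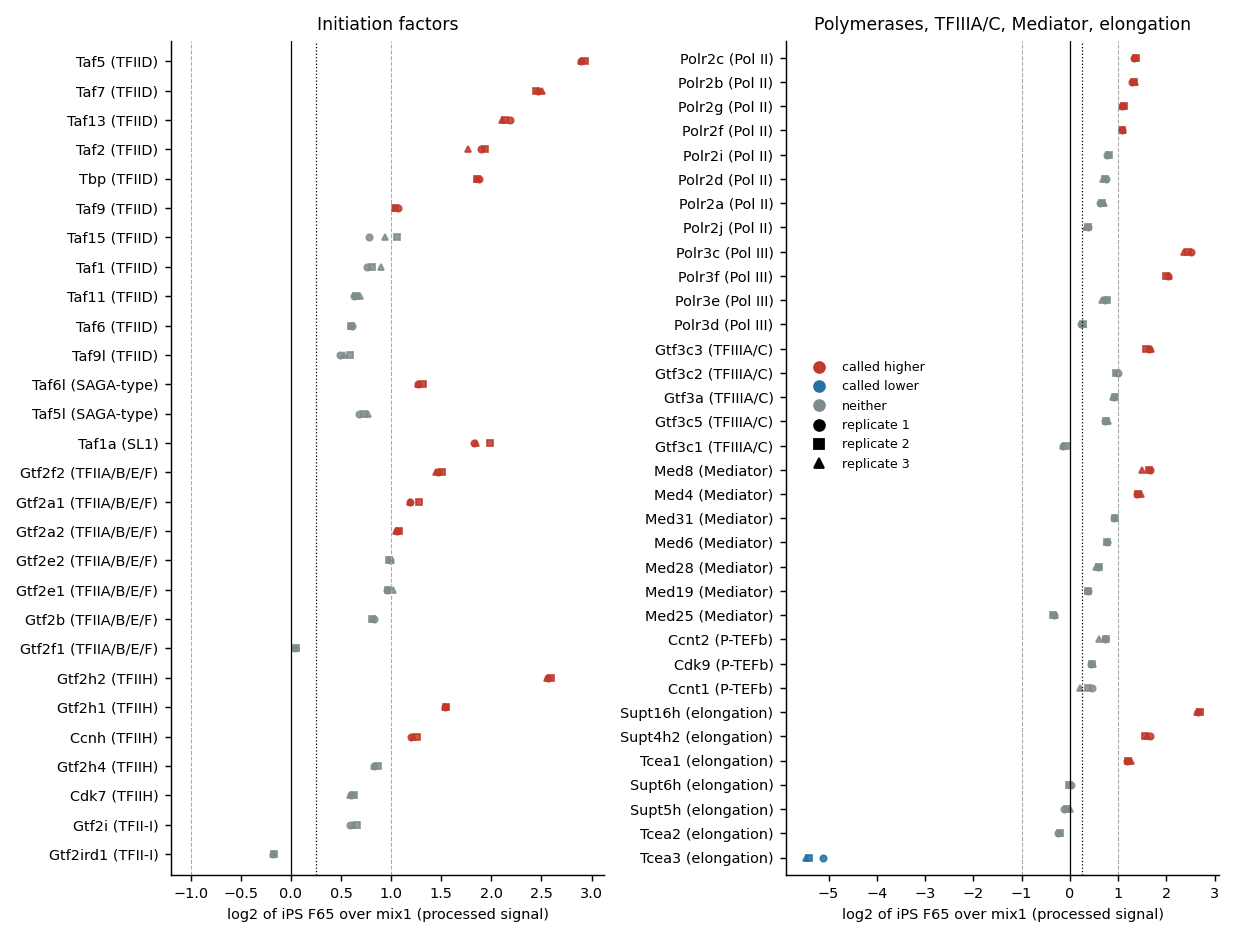
Log2 ratio of iPS F65 over mix1 (x axis) for 62 of the 63 tested members (rows, grouped by complex), with 1 marker per array and the call in colour. The solid line is 0, the dotted line the median of all genes tested (0.25) and the dashed lines the 2-fold limits. Most rows lie right of the dotted line, Taf5 is farthest right at 2.90 and Tcea3 is alone on the far left at -5.32.

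TFIID, the complex with the most tested members, gave the largest count of higher members, 6 of 11 (54.5%, against 30.9% of all genes). None was lower, and the median log2 ratio was 1.05 (0.82 with normexp and loess). After centring and with normexp and loess 5 were higher (45.5%, against 24.5% and 18.3% of all genes). Taf5, a WD-repeat scaffold subunit of the TFIID core, had 4134, 4686 and 4752 units of processed signal in iPS F65 on the arrays of replicates 1 to 3, against 557, 613 and 641 units in mix1. All 3 iPS values lay far above all 3 mix1 values. The log2 ratio was 2.90 ± 0.02 (SD, n = 3; limma, adjusted p = 5.75e-06), a 7.49-fold difference and the largest among the members. Taf7, a subunit that regulates the acetyltransferase activity of TAF1, had 1540, 1910 and 1916 units in iPS F65, against 278, 350 and 336 units in mix1. The groups did not overlap, and the log2 ratio was 2.48 ± 0.03 (SD, n = 3; limma, adjusted p = 6.47e-06). Taf13, which pairs with TAF11 through a histone fold, had 46469, 55110 and 57458 units in iPS F65, against 10175, 12518 and 13341 units in mix1. This was a log2 ratio of 2.15, and its second probe gave 2.82.

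TBP, the subunit that binds the TATA element and serves all 3 polymerases, was measured by 10 spots per array. Its mean signals were 9990, 11482 and 11347 units in iPS F65, against 2719, 3169 and 3135 units in mix1. Every iPS value was above every mix1 value, and the log2 ratio was 1.86 ± 0.01 (SD, n = 3; limma, adjusted p = 6.44e-06), a 3.64-fold difference. Taf2, a promoter-contacting subunit, had a log2 ratio of 1.87 and Taf9, a histone-fold subunit that TFIID shares with SAGA, one of 1.05. With normexp and loess on local backgrounds as given in the files Taf2 was not called, at 0.78 (limma, adjusted p = 0.0519). Taf1, the largest subunit, was not called at 0.82, although its other 2 probes gave 1.28 and 1.37. Taf15 (0.93), Taf11 (0.66), Taf6 (0.61) and Taf9l, now named Taf9b (0.54), were also above 0 and below the limit. TAF15 carries the TAF name but is an RNA-binding protein of the FET family rather than a core TFIID subunit. The germ-cell gene Taf7l was not tested, since it was well above background in neither channel on all arrays.

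Other TFIID subunits stood under another array name. Taf4b, a TAF4 paralogue known for its role in germ cells of the mouse, had 2766, 3242 and 3264 units in iPS F65, against 316, 276 and 324 units in mix1. The ranges lay far apart, and the log2 ratio was 3.34 ± 0.21 (SD, n = 3; limma, adjusted p = 6.27e-05), above that of every one of the 63 tested members. Taf8, the partner of TAF10 in TFIID, was higher at 1.5. Of the related factors outside the names, Tbpl1, a TBP paralogue with a role in spermatids of the mouse, was higher at 2.34, as were Btaf1, which removes TBP from DNA (2.04), and Dr1, a subunit of the repressor NC2 (1.14). Drap1, the partner of DR1 in NC2, was lower at -1.18 (limma, adjusted p = 2.32e-05), and the ratios of these NC2 subunits kept opposite signs with normexp and loess, at 0.68 for Dr1 and -1.57 for Drap1.

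The coactivator SAGA uses relatives of 2 TFIID subunits. Taf6l was higher at 1.29 and Taf5l was not called at 0.73, while Taf6 stood at 0.61 and Taf5 at 2.90. The paralogues thus ran in opposite order: Taf5 exceeded Taf5l by 2.18 ± 0.05, whereas Taf6 lay below Taf6l, with a difference of -0.68 ± 0.03 (log2 ratio differences, SD, n = 3). The second Taf5l probe gave 1.54, which narrows the first gap. SL1, the TBP complex of polymerase I, had all 3 measured subunits higher, against 30.9% of all genes. Taf1a stood at 1.89, with mix1 well above background on 2 of 3 arrays. Under other array names, Taf1d stood at 2.05 and Taf1c at 1.28. On local backgrounds as given Taf1a was not called, at 0.42 (limma, adjusted p = 0.236).

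TFIIH, which opens the promoter and phosphorylates the C-terminal domain, had 3 of 5 members higher (60.0%, against 30.9% of all genes). Centring, like normexp with loess, left 2 higher (40.0%, against 24.5% and 18.3% of all genes). Its median, 1.23 (0.88 with normexp and loess), was the highest among complexes of at least 3 members under the array names of the rule. With subunits under other array names added, SL1 stood at 1.89, TFIID at 1.5 and TFIIH at 1.26. Gtf2h2, the p44 subunit of the TFIIH core, had 12767, 14881 and 14736 units in iPS F65, against 2148, 2455 and 2494 units in mix1. No mix1 value reached an iPS value, and the log2 ratio was 2.58 ± 0.02 (SD, n = 3; limma, adjusted p = 5.80e-06), a 5.97-fold difference. Gtf2h1, the p62 core subunit, was higher at 1.54. In the kinase module, Ccnh was higher at 1.23, but was not called after centring (0.95) or with normexp and loess (0.88). Its kinase Cdk7 was not called at 0.61, with 17078, 20521 and 20590 units in iPS F65 against 11287, 13217 and 13712 units in mix1. Their assembly factor Mnat1, outside the names, was higher at 1.36. The helicase subunit Ercc3 was not called at 0.56. The small core subunit Gtf2h5, under another array name, was higher at 1.29, or 0.98 and not called with normexp and loess.

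Of TFIIA, TFIIB, TFIIE and TFIIF, 3 of 7 tested members were higher (42.9%, against 30.9% of all genes), with a median of 0.99. The median was 0.60 with normexp and loess. There and after centring 1 was called (14.3%, against 18.3% and 24.5% of all genes). Both ubiquitous TFIIA genes were called, Gtf2a1 at 1.22 and Gtf2a2 at 1.06, but neither was called after centring or with normexp and loess. On local backgrounds as given Gtf2a1 stood at 0.30 (limma, adjusted p = 0.227). TFIIB (Gtf2b), which positions the polymerase, was not called at 0.82. The TFIIE subunits Gtf2e1 and Gtf2e2 stood just under the limit at 0.98 and 0.99, while a second Gtf2e2 probe gave 1.5 and was called higher in all 3 scalings. The TFIIF subunits differed from each other: Gtf2f2 was higher at 1.48, and Gtf2f1 had 46791, 56726 and 57695 units in iPS F65, against 45541, 54743 and 55644 units in mix1, a log2 ratio of 0.05. Gtf2a1lf, the germ-cell TFIIA gene now named Gtf2a1l, was well above background on 0 arrays in either channel. The TFII-I family, signal-responsive factors that share the Gtf2 name, had 0 of 2 members called on their brightest probes, with Gtf2i at 0.62 and Gtf2ird1 at -0.18. A second Gtf2i probe was called higher at 1.14, and was not called with normexp and loess (0.61).

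All 8 measured subunits of polymerase II had ratios above 0, from 0.36 to 1.34, as had 12306 of the 21781 tested genes. Of the 8, 4 were higher, against 30.9% of all genes. Polr2a, the catalytic subunit with the repeated tail whose oligo is shown above, had 913, 1154 and 1083 units in iPS F65, against 592, 724 and 668 units in mix1. The iPS values all lay above the mix1 values, but the log2 ratio of 0.66 ± 0.04 (SD, n = 3; limma, adjusted p = 8.28e-05) was under the 2-fold limit. Polr2b, the second-largest subunit, was higher at 1.32, with 9108, 11111 and 10985 units in iPS F65 against 3752, 4432 and 4321 units in mix1. Polr2c, an assembly subunit, was higher at 1.34, Polr2g of the stalk at 1.10 and Polr2f, shared by all 3 polymerases, at 1.08. Polr2i (0.79), Polr2d (0.72) and Polr2j (0.36) were not called. The calls of this complex moved with the scaling, from 4 to 2 after centring (25.0%, against 24.5% of all genes). They fell to 1, Polr2c at 1.02, with normexp and loess (12.5%, against 18.3% of all genes). All 8 ratios stayed above 0. Of the 21781 tested genes, 10750 were above 0 after centring and 10343 with normexp and loess. Under other array names, Polr2h, another shared subunit, was higher at 1.46, and Polr2m, whose protein competes with TFIIF for the polymerase, at 1.79.

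Polymerase III had 2 of 5 members higher (40.0%), also after centring and with normexp and loess. Over all genes the shares were 30.9%, 24.5% and 18.3%, in the same order. Polr3c, a subunit of the initiation subcomplex that polymerase III has in addition to the common core, had 3903, 4406 and 4766 units in iPS F65, against 691, 809 and 921 units in mix1. The groups did not overlap, and the log2 ratio was 2.44 ± 0.06 (SD, n = 3; limma, adjusted p = 1.09e-05). Polr3f, another subunit of the same subcomplex, had 875, 1069 and 1059 units in iPS F65, against 213, 270 and 256 units in mix1, a log2 ratio of 2.02. With normexp and loess on local backgrounds as given in the files Polr3f was not called, at 0.77 (limma, adjusted p = 0.105), which left 1 member higher. Polr3e (0.72) and Polr3d (0.26) were not called. The 2 largest subunits, under other array names, were higher in iPS F65, Polr3a at 1.5 and Polr3b at 1.47, while Polr3k stood at 0.20. Polr3g was not analysed here.

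Of TFIIIA and TFIIIC, which bring polymerase III to its genes, 1 of 5 members was higher (20.0%, against 30.9% of all genes). This was Gtf3c3 at 1.63, or 0.75 and not called on local backgrounds as given. Gtf3c2 stood at 0.98 with a second probe called at 1.51, Gtf3a at 0.91, Gtf3c5 at 0.75 and Gtf3c1, the largest TFIIIC subunit, at -0.13. In a list of other polymerase III factors, 5 of 11 were higher and 2 lower (45.5% and 18.2%, against 30.9% and 24.5% of all genes). Ssb, the La protein that binds new polymerase III transcripts, was higher at 2.26 and Zfp143, an activator of small-RNA promoters, at 1.83. Bdp1, a subunit of TFIIIB, was higher at 1.56, and its partner Brf1 stood at 0.39. Maf1, the repressor of polymerase III, had 7150, 8212 and 8123 units in iPS F65, against 14267, 16616 and 16488 units in mix1. Its log2 ratio of -1.01 ± 0.01 (SD, n = 3; limma, adjusted p = 1.33e-05) was just past the limit, and it was -1.37 with normexp and loess. Snapc2 was lower at -1.21 and Snapc1, of the same small-RNA promoter complex, higher at 1.62.

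**Figure D2:**
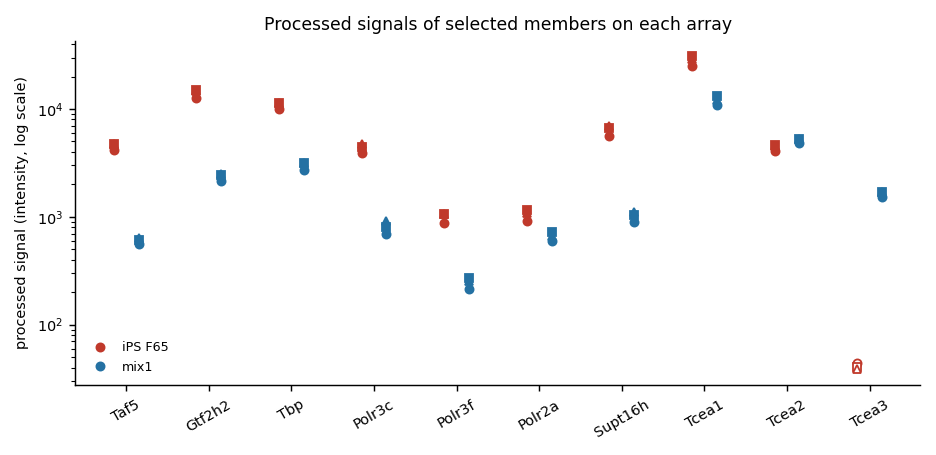
Processed signal on a log axis for 10 members, with the 3 iPS F65 values (red, left) and the 3 mix1 values (blue, right) of each gene; circles, squares and triangles are replicates 1, 2 and 3, and open symbols mark a channel not well above background on all arrays. The 2 colours separate for every gene shown, least for Tcea2, and heights are not comparable between genes because each has its own oligo.

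Of Mediator, 2 of 7 members under the Med names were higher (28.6%, against 30.9% of all genes), Med8 at 1.61 and Med4 at 1.43, and the median was 0.77. With normexp and loess 1 of the 7 was called. The head subunit Med6 stood at 0.77, the middle subunit Med31 at 0.93, Med28 at 0.58 and Med19 at 0.37, and Med25, a target of several activators, at -0.33. A further 17 genes carried an older or provisional array name, and of these 2 were higher and 1 lower (median 0.36, or -0.04 with normexp and loess). Over both naming routes 4 of 24 Mediator genes were called higher (16.7%), against 30.9% of all genes, and the median was 0.42, or 0.00 with normexp and loess, where 12.5% were called, against 18.3% of all genes. TFIID over both routes had 8 of 13 higher (61.5%) and a median of 1.5. No test between complexes was made.

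The Mediator kinase module, which docks reversibly on the rest, held genes called in both directions. Cdk8, its kinase, had 25213, 28527 and 27720 units in iPS F65, against 5030, 5644 and 5392 units in mix1. All 3 iPS values were above all mix1 values, and the log2 ratio was 2.34 ± 0.02 (SD, n = 3; limma, adjusted p = 6.03e-06), a 5.07-fold difference. Cdk19, the paralogue that can take the place of CDK8, had 2325, 2772 and 2765 units in iPS F65, against 5730, 6549 and 6482 units in mix1. Here every iPS value was below every mix1 value, with a log2 ratio of -1.26 ± 0.04 (SD, n = 3; limma, adjusted p = 1.91e-05). Their cyclin Ccnc was higher at 1.90. Med13l was lower at -1.06 and its paralogue Med13 was not called at 0.44. The difference of log2 ratios was 3.60 for Cdk8 minus Cdk19 and 1.5 for Med13 minus Med13l, each with the same sign on all 3 arrays, and the signs of Cdk8 and Cdk19 stood in all 3 scalings. Outside this module, Med21 of the middle was higher at 1.73, while Med15 (-0.60), Med29 (-0.47) and Med20 (-0.36) were below 0 and not called, and Med14, the backbone, stood at -0.01.

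**Figure D3:**
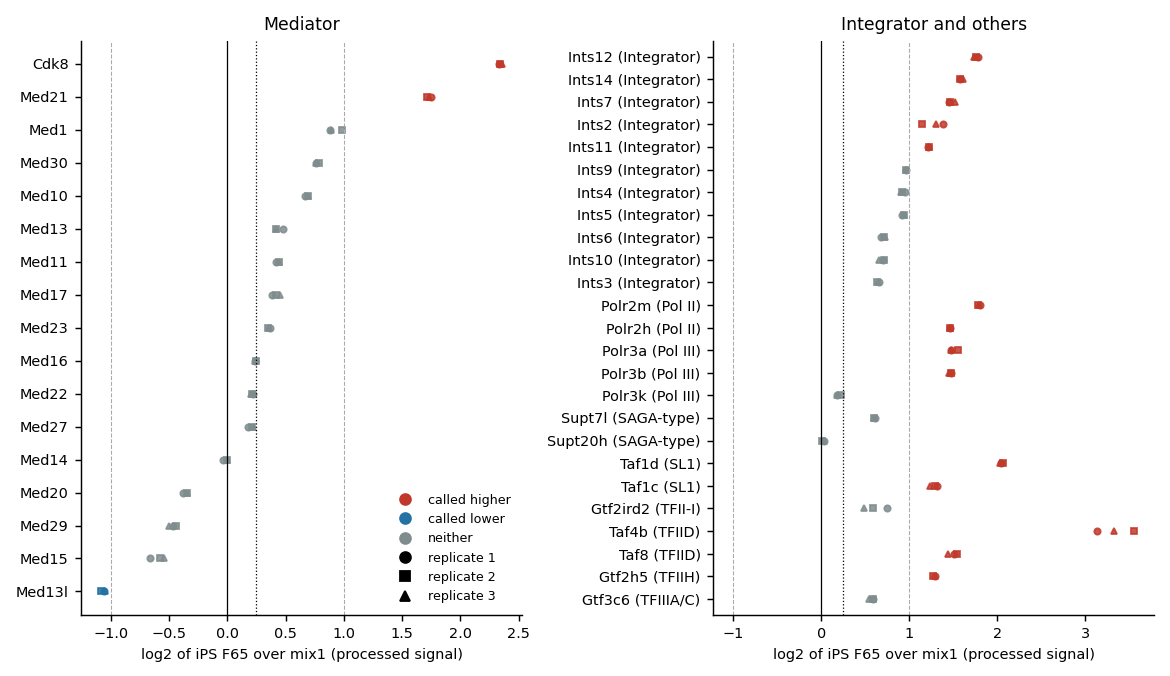
Log2 ratio of iPS F65 over mix1 (x axis) on each array for the 42 tested subunits found under another array name, with Mediator on the left and Integrator and the other complexes on the right. Solid, dotted and dashed lines are 0, the all-gene median (0.25) and the 2-fold limits. Cdk8 (2.34) and Med13l (-1.06) are the ends of the Mediator panel, and the means of all 11 Integrator subunits lie between 0.65 and 1.76.

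Integrator, which cleaves small nuclear RNAs and ends early transcription, was measured only through other array names. All 11 subunits had ratios above the all-gene median, from 0.65 to 1.76 with a median of 0.96. Of these, 5 were higher (45.5%, against 30.9% of all genes). The called subunits were Ints12 (1.76), Ints14 (1.59), Ints7 (1.48), Ints2 (1.27) and Ints11, the RNA endonuclease (1.22). Its partner Ints9 stood at 0.96. After centring 3 subunits were higher (27.3%, against 24.5% of all genes). With normexp and loess 2 passed the limit (18.2%, against 18.3% of all genes), and all 11 ratios were above 0. Across all complexes, 16 of the 42 tested genes found by another name were higher and 1 lower, and their median was 0.74. That share of 38.1% stood beside 41.3% among the 63 members and 30.9% of all genes.

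On their brightest probes none of the 3 P-TEFb members was called (0.00%, against 30.9% of all genes), and 1, Ccnt2, was called with the mean of a gene's probes. At an adjusted p without a fold limit, which 95.5% of all genes passed in either direction, all 3 were above 0. Cdk9, the kinase that releases paused polymerase, had 13275, 15101 and 15214 units in iPS F65, against 9796, 10990 and 11009 units in mix1. The lowest iPS value was above the highest mix1 value, and the log2 ratio was 0.45 ± 0.01 (SD, n = 3; limma, adjusted p = 8.37e-05), or 0.09 with normexp and loess. Ccnt2 stood at 0.69 on its brightest probe, while its other probe gave 1.87 and was called higher (1.28 with normexp and loess). Ccnt1 stood at 0.34, where mix1 was well above background on 2 of 3 arrays. It was at 0.07 after centring (limma, adjusted p = 0.377) and at 0.08 with normexp and loess (limma, adjusted p = 0.0544). The inhibitors that hold P-TEFb in an inactive particle were lower in iPS F65: Hexim1 at -1.01 with 1716, 1969 and 2078 units in iPS F65 against 3554, 3908 and 4113 units in mix1, and Hexim2 at -1.23. Both were lower in all 3 scalings, at -1.40 and -1.39 with normexp and loess.

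Of the other pausing and elongation-complex genes, 5 of 16 tested were higher (31.2%, against 30.9% of all genes) and 2, the Hexim genes, lower. The higher count was 2 (12.5%) both after centring, against 24.5% of all genes, and with normexp and loess, against 18.3%. Eaf2, a partner of the ELL elongation factors, had 641, 739 and 726 units in iPS F65, against 18.0, 14.2 and 14.5 units in mix1. Mix1 was well above background on 0 arrays, and Eaf2 was at least 10.5-fold higher (limma, adjusted p = 4.19e-05). Iws1, a partner of SPT6, was higher at 1.79, Ssrp1 at 1.27, Nelfa of the pausing factor NELF at 1.17 and Ell2 at 1.09. Nelfb (0.62), Nelfe (-0.07), Aff4 (-0.22) and Ell (-0.61) were not called.

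The elongation factors spread widely, from -5.32 to 2.66, with the median at 0.00 (-0.31 with normexp and loess). Of 7 members, 3 were higher (42.9%, against 30.9% of all genes) and 1 lower (14.3%, against 24.5%). In both other scalings, centred and normexp with loess, 2 were higher (28.6%, against 24.5% and 18.3% of all genes). Supt16h, the large subunit of the histone chaperone FACT, had 5653, 6694 and 6898 units in iPS F65, against 902, 1037 and 1112 units in mix1. The groups did not overlap, and the log2 ratio was 2.66 ± 0.03 (SD, n = 3; limma, adjusted p = 6.11e-06). Its other 2 probes gave 2.53 and 3.42. Its FACT partner Ssrp1 was called in the same direction at 1.27. Ssrp1 fell just short of the limit after centring (1.00) and with normexp and loess (0.96). Supt4h2, now named Supt4h1, was higher at 1.60. Supt5h, its partner in the factor DSIF, stood at -0.06 on its brightest probe, not distinguishable from 0 (limma, adjusted p = 0.193). A second Supt5h probe gave 0.78 (limma, adjusted p = 0.000267), under the 2-fold limit. Supt6h stood at 0.00, with 571, 662 and 691 units in iPS F65 against 565, 668 and 685 units in mix1.

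The 3 TFIIS genes, whose proteins rescue stalled polymerase, differed in direction. Tcea1, the form found in most tissues, had 24806, 30759 and 29168 units in iPS F65, against 10923, 13283 and 12220 units in mix1. This was a log2 ratio of 1.22 on the brightest probe, which was not called after centring (0.94) or with normexp and loess (0.91). The second Tcea1 probe, whose oligo is printed above, gave 0.15 (-0.16 with normexp and loess). Tcea2 had 4091, 4596 and 4554 units in iPS F65, against 4864, 5289 and 5221 units in mix1, a ratio of -0.22 that was not called. Tcea3, a form enriched in some adult tissues, had 43.8, 40.5 and 38.5 units in iPS F65, which were not well above background, against 1511, 1704 and 1702 units in mix1. Every mix1 value was far above every iPS value. Tcea3 was at least 24.9-fold lower in iPS F65 (limma, adjusted p = 1.65e-05), and the measured log2 ratio was -5.32 (-4.22 with normexp and loess). It was the only called lower member in these settings, although with local backgrounds as given in the files it kept its sign without passing the test. All 4 fibroblast markers and 3 of the 4 myeloid markers, all but Ptprc, were lower in the same samples, and their part in the Tcea3 value was not tested.

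Related regulators of the polymerase were counted in the same way. Over 62 tested genes of 7 lists outside the names, 26 were higher and 8 lower, 41.9% and 12.9%, against 30.9% and 24.5% of all genes. With normexp and loess 17 were higher (27.4%, against 18.3% of all genes). In the PAF1 complex, an elongation scaffold, Cdc73 (2.17) and Leo1 (1.75) were higher, and Paf1 (-0.37), Ctr9 (0.18), Rtf1 (0.56) and Skic8 (0.24) were not called. Among kinases, phosphatases and binders of the C-terminal domain 5 of 11 were higher and 2 lower (45.5% and 18.2%), but with normexp and loess 2 were higher (18.2%, against 18.3% of all genes). Rpap3, a chaperone of polymerase assembly, was higher at 2.11 and Rprd1a at 1.60, Cdk12 at 1.25 and the phosphatase Ctdp1 at 1.34. The small phosphatases ran the other way. Ctdsp1 had 416, 467 and 481 units in iPS F65, against 2374, 2699 and 2701 units in mix1, a log2 ratio of -2.51. Ctdspl had 15.9, 13.2 and 23.4 units in iPS F65, not well above background, against 2085, 2356 and 2507 units in mix1, and was at least 35.1-fold lower. These enzymes are known for silencing neuronal genes in non-neuronal cells as well as for acting on the C-terminal domain. For polymerase I, 4 of 9 genes were higher (44.4%, against 30.9% of all genes) and 0 lower, with Polr1e at 2.91 and Polr1f at 2.04.

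**Figure D4:**
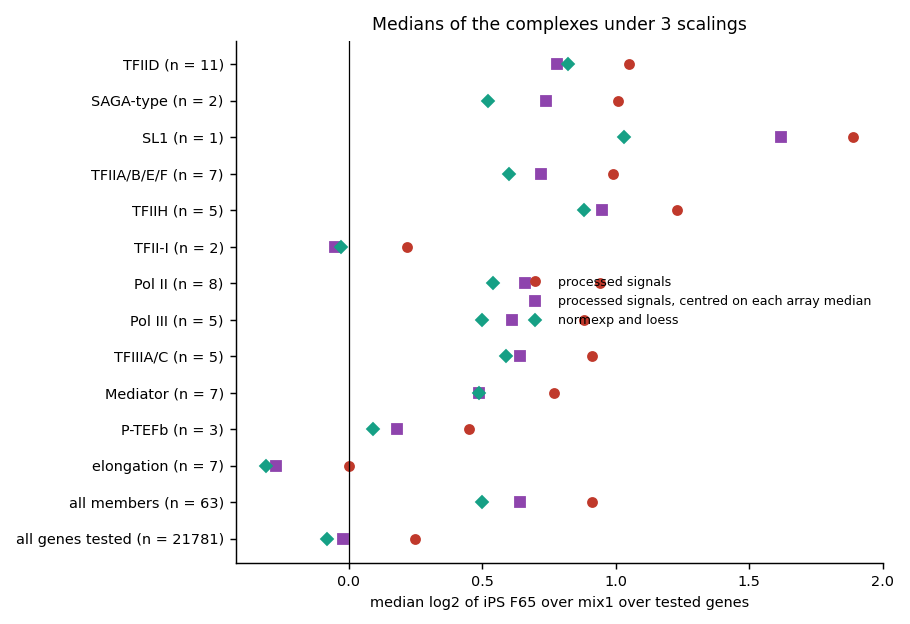
Median log2 ratio of iPS F65 over mix1 over the tested members of each complex (rows, with their number) under 3 scalings, with all members and all genes tested at the bottom. TFIIH (1.23, 0.95 and 0.88 for processed, centred, and normexp with loess) and TFIID (1.05, 0.78 and 0.82) lie right of all genes (0.25, -0.02 and -0.08) in each scaling, and the elongation factors (0.00, -0.27 and -0.31) lie left of it.

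The order of the complexes by median changed little with the scaling at its ends. SL1, TFIIH and TFIID had the highest medians in all 3 scalings, and P-TEFb, the TFII-I family and the elongation factors the lowest. Medians of the TFII-I family (0.22 processed, -0.05 centred, -0.03 with normexp and loess) and of the elongation factors changed sign or reached 0, so no direction is given for these groups. Several groups hold few genes, with 1 in SL1, 2 in the TFII-I family, 2 of SAGA type and 3 in P-TEFb.

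Some genes gave different answers from different oligos. Of 19 members with several tested probes, 7 had probes with different calls and 0 had probes called in opposite directions, and the median gap between the lowest and highest log2 ratio of a gene was 0.55. The gap reached at least 1 for 4 genes. Ccnt2 gave 0.69 and 1.87, Taf9 gave 1.05 and 2.22, Taf9l gave -0.59 and 0.54, and Tcea1 gave 0.15 and 1.22. The accession of the second Taf9 probe is now listed by RefSeq under Ak6, a gene that shares part of the Taf9 locus, so this probe may not measure Taf9. Ratios of Gtf2ird1 (-0.51 to 0.38) and Supt5h (-0.06 to 0.78) also lay on both sides of 0. These gaps are wider than the spread between arrays, whose largest SD among members was 0.19.

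**Figure D5:**
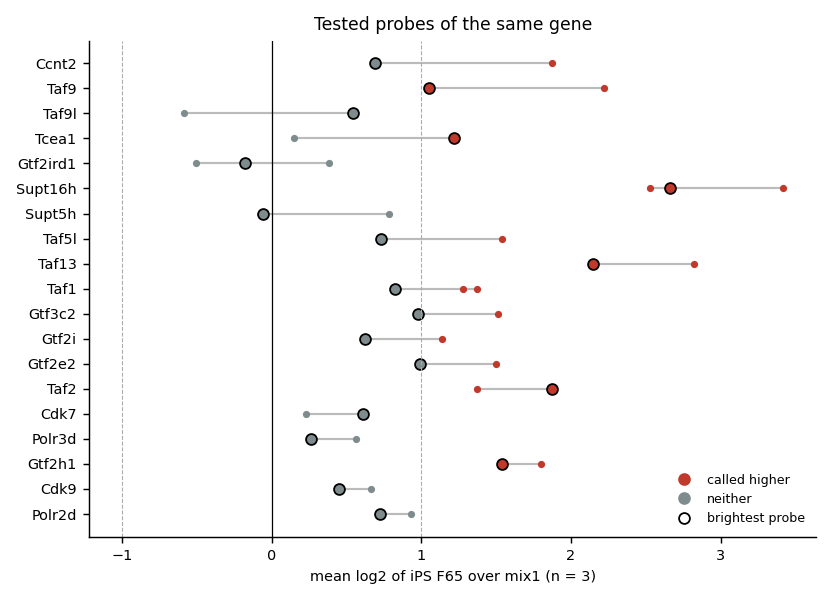
Mean log2 ratio of iPS F65 over mix1 (x axis, n = 3 arrays) of each tested probe for the 19 members with several (rows, widest gap at the top); larger outlined points are the brightest probe and colours give the call. Ccnt2, Taf9, Taf9l and Tcea1 span at least 1, and the widest gap is 1.18 in Ccnt2.

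Promoters were read from RefSeq (GRCr8) for 53 of the members, as the 250 bases before the annotated start, on both strands. The Taf7 promoter is shown because it held 4 matches to the 2 motifs marked, which recur at promoters of widely expressed genes. That of Tcea3, the lower member, is shown because it held 0. The promoters of the higher members Taf5, Tbp and Gtf2h2 also held 0, so this is not particular to Tcea3. Capitals mark CCGGAAG (an ETS-type motif) and the NRF1-type motif (GCGC, any base, then TGCGC), on either strand, where neighbouring matches run together. The stretches are chr18:29713325-29713574 (minus strand) for Taf7 and chr5:153760177-153760426 (plus strand) for Tcea3, both in GRCr8.
Taf7: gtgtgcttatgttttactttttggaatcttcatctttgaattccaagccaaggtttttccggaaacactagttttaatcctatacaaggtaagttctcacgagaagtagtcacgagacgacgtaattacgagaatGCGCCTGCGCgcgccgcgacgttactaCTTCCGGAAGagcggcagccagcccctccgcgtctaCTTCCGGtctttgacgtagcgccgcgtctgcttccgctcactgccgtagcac
Tcea3: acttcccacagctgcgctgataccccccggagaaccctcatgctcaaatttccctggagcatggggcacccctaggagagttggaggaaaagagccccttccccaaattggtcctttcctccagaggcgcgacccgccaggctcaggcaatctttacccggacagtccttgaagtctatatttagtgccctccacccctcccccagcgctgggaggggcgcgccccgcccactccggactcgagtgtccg
Of the member promoters, 28.3% held CCGGAAG, against 7.74% of all 27457 rat promoters and 9.52% of the 19005 at protein-coding genes. The NRF1-type motif stood in 20.8% of member promoters, against 4.17% of all promoters. The E-box CACGTG stood in 22.6%, against 5.79%, and the GC box GGGCGG in 67.9%, against 32.4%. TATAAA stood in 5.66%, against 13.1%, and CCAAT in 47.2%, against 34.3%. At protein-coding genes the shares were 5.45% for the NRF1-type motif, 6.38% for the E-box and 40.3% for the GC box. They were 12.3% for TATAAA and 35.5% for CCAAT. Between the members, CCGGAAG was found in 4 of 20 promoters of higher members and in 11 of 31 of the members that were not called or lower, and the NRF1-type motif in 6 of 20 and 5 of 31. These are matches of letters, and binding was not measured.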

How the data were processed

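Rat total RNA was measured on 3 Agilent 2-colour arrays, each with 1 iPS F65 sample in Cy3 and mix1 in Cy5, all on 1 slide and 1 scan. Agilent Feature Extraction 9.5.3.1 produced the scanner files that the authors deposited, per the file headers. The deposited mean spot and background intensity values were not normalised, per the file headers, and the processed signals are intensity values that the same software, before the authors deposited them, had background-subtracted and dye-normalised within each array, per the file headers. The deposited series matrix holds log2 ratios, and it matched the log2 of green over red processed signals to within 3.11e-06, so its direction is iPS F65 over mix1. Its medians were 0.00, -0.01 and -0.06. The headers name rn3 as the design's build.

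Log2 ratios of the processed signals were computed per spot, control spots and outlier-flagged spots (204 to 213 per array) were left out, and repeated spots were averaged per probe. Tests covered the 25801 of 41012 probes that stood well above background throughout the 3 arrays in at least 1 channel. Ratios were tested against 0 with limma 3.58.1 (lmFit, eBayes) in R 4.3.3, with Benjamini-Hochberg adjustment. With 1 control sample no spread of the control enters. Where every array of a channel stayed at background, a bound is given. It is the bright channel's mean normalised level over a floor for the dim one, which is averaged over arrays from whichever is larger, the probe's level or the faintest level that counts as above background, and it is open to dye bias. On simulated ratios with the spread of the real 25801 probes, 89 of 100 shifts of 1.5 and 88 of 100 of 2 were recovered. Of 25601 unchanged probes 2 were called. The unchanged probes were centred on 0 with the spread between arrays alone. Dye effects, variation between controls and the shifted all-gene median did not enter, so this rate of false calls does not carry over to the real ratios. The probes missed had an SD of at least 0.12, with medians of 0.246 and 0.254, against 0.0368 and 0.0387 in those recovered.

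Members and lists were chosen with earlier results of these data known. Probes were also named through RefSeq (GRCr8) by accession (10861), symbol (5536) or older name (3703), and 20912 kept the file's name; the subunits under other array names were added after the files had been seen. The rule for named genes took, for each complex, the 3 largest and 3 smallest called ratios, members seen in 1 channel, paralogue pairs and fixed genes (Tbp, Polr2a, Polr3g, Cdk7, Cdk8, Cdk9, Ccnh), and 2 called genes in each direction from each related list. Genes named beyond it were chosen after their values were seen. Counts and medians cover every tested gene of a list, and some genes are not reported here by name. Oligos printed are those with an open reading frame. Alternatives changed the background correction and dye scaling, the centring, the source of values, the filter, the probe of a gene, the arrays and the fold limit.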

Additional observations from a re-analysis of the deposited data

Results flagged for a closer look

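A further Polr2a probe, printed on 10 spots of each array, was left out of the tests because it was well above background on 2 of 3 arrays in iPS F65 and on 0 in mix1. Its signals were 62.7, 72.7 and 86.3 units in iPS F65, against 34.8, 38.4 and 45.8 units in mix1, a mean log2 ratio of 0.89 where the tested Polr2a probe gave 0.66. The Taf7l probe was left out for the same reason, with 2 of 3 arrays above background in iPS F65 and 0 in mix1. Its signals were 53.8, 85.1 and 63.5 units in iPS F65, against 14.8, 14.3 and 13.3 units in mix1, a mean log2 ratio of 2.23 ± 0.36 (SD, n = 3) without a test. Both stood out as signals in iPS F65 above the background level in data outside the tests, and mix1 gives only a bound for them.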

How the results depend on the processing

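All 27 called members kept their direction in every alternative that measured them; the calls kept were 17 with normexp and loess, 16 with local backgrounds as given, 20 after centring, 26 with the mean of a gene's probes, and 25 of 25 above background in both channels, a set without Tcea3 and Taf1a. Of members near 0, Med19 (0.37), Polr3d (0.26) and Gtf2f1 (0.05) had ratios of -0.05, -0.13 and -0.14 with normexp and loess. Where calls were lost, the cause was not tested.

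With normexp and loess the members called higher were 16, those of Mediator, of polymerase II and of TFIIA, TFIIB, TFIIE and TFIIF 1 each, those of SAGA type 0 and related genes 17; all genes called higher were 3979, the medians were 0.50 for members and -0.08 for all genes, and their difference was 0.58. With local backgrounds as given, 16 members were higher and 0 lower (Tcea3 at -2.26, limma adjusted p = 0.117), with 1 in Mediator, 1 in polymerase III, 0 of SAGA type, 0 in SL1, 1 in TFIIA, TFIIB, TFIIE and TFIIF and 0 in TFIIIA and TFIIIC; related genes gave 17 higher and 4 lower, all genes 2351 and 2065, and the medians were 0.67 for members and 0.03 for all genes. After centring, polymerase II had 2 and TFIIA, TFIIB, TFIIE and TFIIF 1 higher, and the medians were 0.64 for members and -0.02 for all genes.

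With the mean of a gene's probes, 1 P-TEFb, 2 SAGA-type and 2 TFIIIA and TFIIIC members were higher and the all-gene median was 0.27. With no filter on dim probes the all-gene median was -0.02 and the members lay 0.93 above it. In both channels only, 0 members were lower, 0 of SL1 higher and 3232 of all genes lower, the all-gene median was 0.28 and the members lay 0.63 above it; fewer genes were tested there.

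At a 1.5-fold limit 48 members were higher. Mediator had 4, P-TEFb 1, polymerase II 7, polymerase III 4, SAGA-type 2 and the TFII-I family 1. TFIIA, TFIIB, TFIIE and TFIIF had 6, TFIID 10, TFIIH 5 and TFIIIA and TFIIIC 4. Of subunits under other names, 27 were higher and 2 lower. The share of all genes at this limit is not given here, so these counts cannot be read against it. With no fold limit 56 members were higher and 5 lower (Mediator 6, P-TEFb 3, polymerase II 8, polymerase III 5, SAGA-type 2, TFII-I family 1, TFIIA, TFIIB, TFIIE and TFIIF 7, TFIID 11, TFIIH 5 and TFIIIA and TFIIIC 4 higher), with 36 higher and 4 lower subunits under other names, 44 and 17 related genes and 11847 and 8961 of all genes.

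Leaving out each array in turn gave 26 to 27 higher members and 1 lower, with medians from 0.87 to 0.92 lying 0.62 to 0.67 above all genes. No paired analysis was possible because mix1 is 1 control sample and every array belongs to 1 group. Signal over background limits Tcea3, Eaf2, Ctdspl, Pou5f1 and Thy1, which have bounds only in 1 channel, and 3 arrays with 1 dye orientation limit every ratio.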
